A study of Mus musculus with 12 samples.

Results

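The 37 genes described here are markers of endothelial cells, the cells that line blood vessels. They were found by symbol among the 29564 genes of a sequencing study of mouse left ventricle, and all 37 were present and passed the filter on low counts. Poly(A) RNA came from 12 wild-type mice of strain C57BL6, 4 in each of 3 groups, and each mouse gave 1 library. The published methods name male C57BL/6J mice. Control-Veh mice (libraries C1 to C4) were non-failing and received vehicle by mouth. HFpEF-Veh mice (V1 to V4) had been given a high-fat diet together with L-NAME, which inhibits nitric oxide synthase. This combination models heart failure in which the ejection fraction is preserved, and these mice also received vehicle. HFpEF-TYA-018 mice (T1 to T4) had the same diet and L-NAME and received 15 mg/kg of TYA-018, an oral inhibitor of the deacetylase HDAC6. By its title the series followed a single dose, whereas the labels give a daily regimen, and the title was taken as correct here. The published study describes hearts collected hours after a single dose, when structure and function of the heart had not yet improved. Diet and L-NAME were given together, so neither can be told apart from the other as the source of a difference. Libraries were numbered by increasing animal number. The animal numbers lie together within each group and the labels name no batch, so a cage, date or order of handling that followed them cannot be told apart from the group.

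Endothelial cells form a single layer held together by adherens and tight junctions, and they read growth factors through receptors such as those for VEGF, angiopoietins and BMP ligands. Their identity is kept by transcription factors of the ETS and SOXF families. In the heart most of them line capillaries that deliver fatty acids to muscle. L-NAME blocks the enzyme by which endothelial cells make nitric oxide, and a loss of that signal is one of the features for which this model was built.

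Levels between libraries are given as CPM, that is, counts relative to library size after scaling by edgeR's TMM, a trimmed mean of log ratios between libraries. A gene was called when its edgeR quasi-likelihood adjusted p lay under 0.05 over the 14333 genes tested, and log2 fold changes are on this same CPM scale. The total estimated count was 61.2 to 83.9 M per library, and a member drew between 66 and 63088 counts in a library. Library V1 had the largest share of globin counts, at 1.32%, and T1 was the deepest library. T1 also stood apart in having mt-Co3 as its most abundant gene by TPM, where the other 11 libraries had mt-Atp8. Mitochondrially encoded genes took 37.04% to 40.6% of counts in Control-Veh libraries, 43.1% to 47.7% in those of HFpEF-Veh and 35.4% to 41.2% in those of HFpEF-TYA-018.

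Compared per length (mean TPM over the 12 libraries), the most abundant members were Fabp4 at 467, Gpihbp1 at 123 and Egfl7 at 96.7 TPM. Eng, Sox18 and Cdh5 followed at 52.3, 45.2 and 35.4 TPM, and the lowest were Apln at 0.329 and Bmx at 0.123 TPM. The effective length behind TPM varied between libraries by more than 2-fold in 5 members (Aplnr, Tal1, Esam, Fli1 and Vwf), whose TPM is therefore less certain. Replicates were close for most members. The median coefficient of variation of CPM over the 37 genes was 10.1% among Control-Veh libraries, 8.80% among those of HFpEF-Veh and 11.7% among those of HFpEF-TYA-018. Robo4 was the steadiest in both vehicle groups (1.93% and 2.04%), and Erg varied most in Control-Veh (61.9%).

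To ask what the model did to these genes, HFpEF-Veh was set against Control-Veh. Most members were higher in the model, by small amounts. Of the 37, 18 were called higher and 1 was called lower, against a background of 10.9% called higher and 10.3% called lower (21.2% called in all) among the genes tested. The called sizes ran from 0.23 to 0.89 on the log2 scale, so none reached 2-fold, and they were led by the transcription factor genes Sox18 and Sox7 and by Clec14a, Eng and Pecam1. The 1 member called lower was Plvap. Without regard to calls, 31 members had positive and 6 negative fold changes with a median of 0.29, where the median of all genes was -0.01. The libraries of the groups did not overlap in 17 members, against 23.5% of genes tested. In 16 of these all 4 HFpEF-Veh libraries lay above all 4 Control-Veh libraries, and in 1 they lay below. The counts leaned on single libraries. Leaving out C3 or C4 gave 11 members called, all higher, and leaving out V1 and T1 together gave 10, all higher. On TPM as deposited, without rescaling, 23 members were positive and 14 negative with a median of 0.04 on log2(TPM + 1). All genes together moved to a median of -0.07 there, and Sox18 alone was called.

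**Figure D1:**
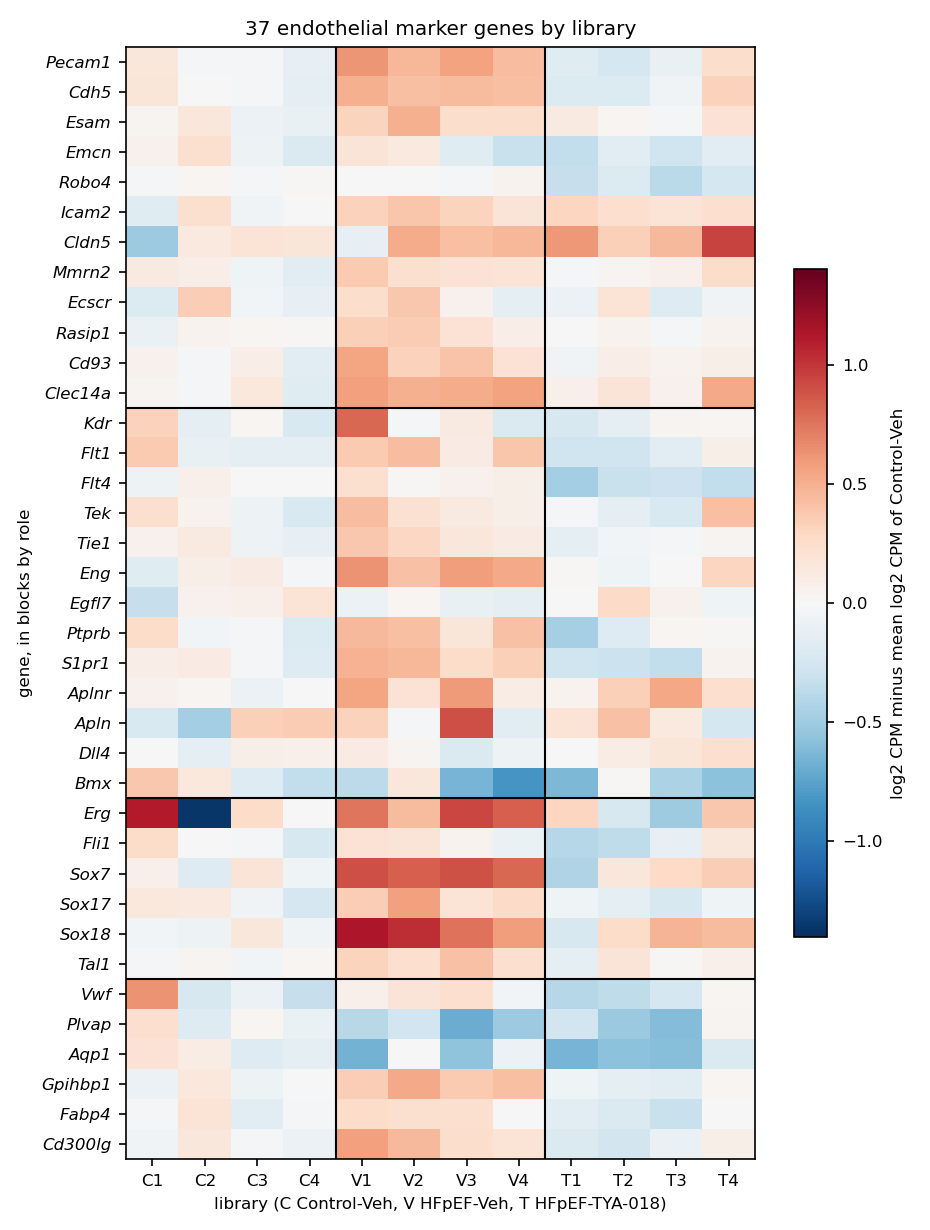
Level of the 37 genes in each library, as log2 CPM after TMM minus the gene's mean log2 CPM in Control-Veh (colour), with genes in 4 blocks by role and libraries in columns by group. The HFpEF-Veh columns are mostly red and those of HFpEF-TYA-018 mostly pale, with Sox7 and Sox18 the reddest rows on this scale, and Plvap, Aqp1 and Bmx are blue in most HFpEF libraries. On unscaled TPM 14 of 37 genes were negative in HFpEF-Veh against Control-Veh.

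To ask what the compound did within the model, HFpEF-TYA-018 was set against HFpEF-Veh. Again most members moved one way, here downward. Of the 37, 20 were called lower and 0 higher, against a background of 10.4% called lower and 8.93% called higher (19.3% called in all). Called sizes ran from 0.23 to 0.74 on the log2 scale, led by Sox7, Sox18, S1pr1 and Pecam1. Over all members 33 fold changes were negative and 4 positive (Cldn5, Dll4, Egfl7 and Plvap, none called), with a median of -0.29 where that of all genes was 0.00. In 19 members the groups did not overlap, against 25.1% of genes tested, and in all 19 the treated libraries lay below those of HFpEF-Veh. Leaving out V1, V2 or T1 gave 13 members called lower in each case, and leaving out V1 and T1 together gave 7 (Pecam1, Flt4, Sox7, Sox17, Robo4, S1pr1 and Gpihbp1). This direction was not kept on TPM as deposited, where 30 members were positive and 7 negative with a median of 0.13 on log2(TPM + 1). There the median of all genes moved to 0.17, and Sox18 alone was called, lower. After TPM was rescaled to coding genes without mitochondrial ones the split was again 33 negative and 4 positive, with 6 members called lower.

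Treated mice were also set against Control-Veh. Flt4 and Robo4 were called, both lower, of 37 members, against 5.86% of genes tested (2.74% called lower and 3.12% higher). The members' median was -0.04 where that of all genes was -0.02, with 16 positive and 21 negative fold changes, and 9 members had an unadjusted p under 0.05. On log2(TPM + 1) without rescaling the split was 31 positive and 6 negative with a median of 0.17, where that of all genes was 0.08, and on log2(TPM + 0.1) it was 30 and 7 with medians of 0.24 and 0.17. Both calls were lost on these scales, after TPM was rescaled and with effective lengths as offset. The groups did not overlap in 4 members, against 14.8% of genes tested, with the treated libraries lower in 3 (Flt4, Robo4 and Aqp1) and higher in Cldn5. A miss of the threshold does not show that the other 35 members were back at the control level. All 3 comparisons draw on the same libraries, since each group enters 2 of them, so the rise and the fall of a member are not separate measurements. RNA of whole ventricle was measured, so more endothelial cells and more of these RNAs per cell cannot be told apart.

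**Figure D2:**
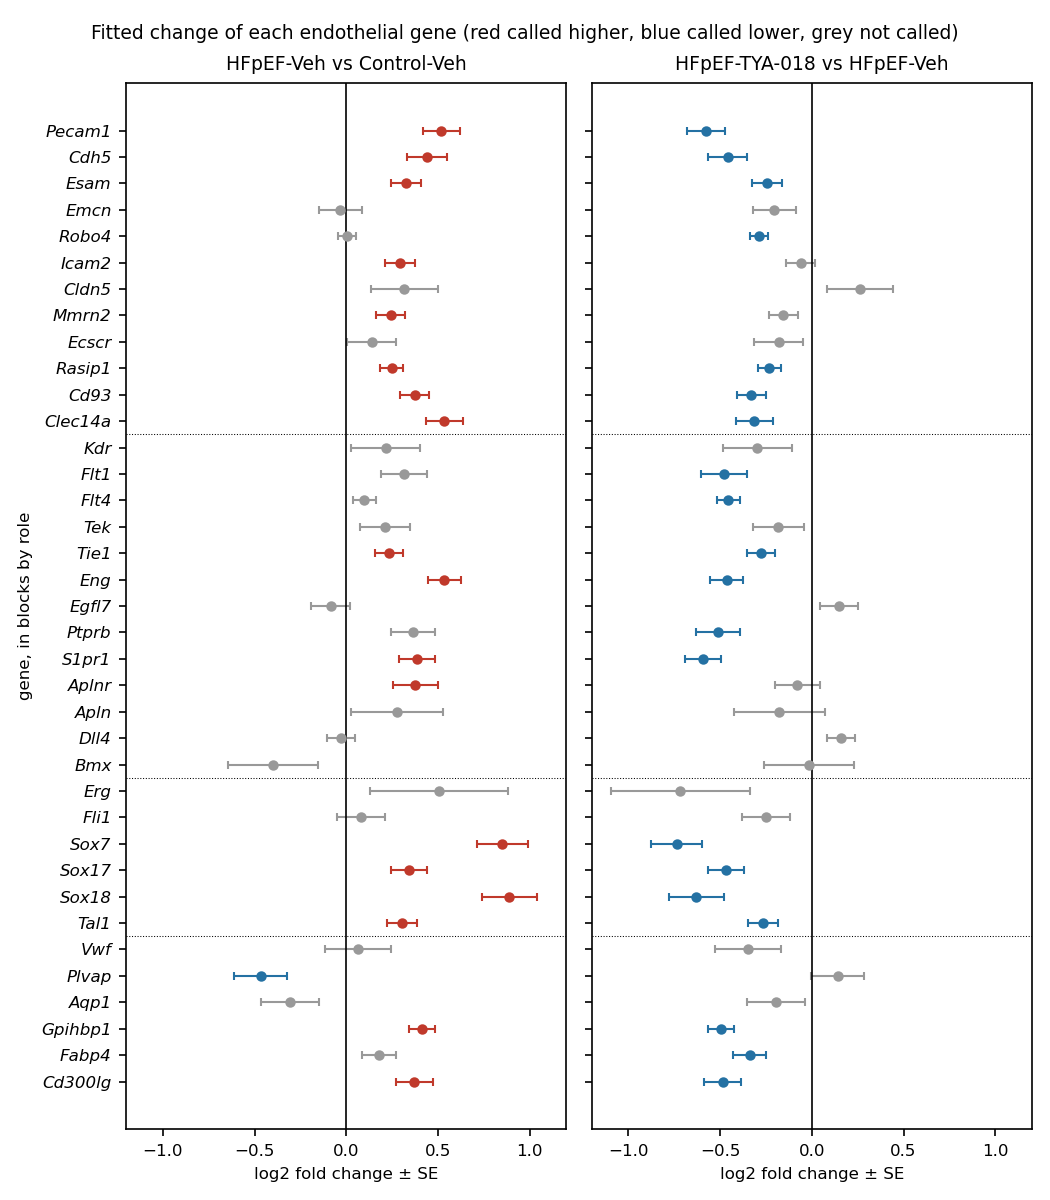
Fitted log2 fold change with its SE (edgeR, TMM) for each of the 37 genes in the model against control (left) and with TYA-018 against vehicle within the model (right), red where called higher, blue where called lower and grey where not called. On the left 18 genes are red and Plvap is blue, and on the right 20 genes are blue and none is red. On TPM as deposited 30 of the 37 values on the right were positive.

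By role, the median change with TYA-018 on log2(TPM + 1) without rescaling was 0.17 for 12 junction and surface genes and 0.11 for 13 receptor and ligand genes. It was 0.01 for 6 transcription factor genes and 0.24 for 6 capillary genes, where that of all genes was 0.17. The direction of the TMM scale given in what follows thus did not hold there for any of these groups. In the same order the medians were -0.22, -0.25, -0.43 and -0.21 after TPM was rescaled. With effective lengths as offset they were -0.22, -0.26, -0.42 and -0.22. In the model the medians on log2(TPM + 1) without rescaling were 0.10, -0.05, 0.13 and -0.27, where that of all genes was -0.07. On the TMM scale they were 0.30, 0.23, 0.42 and 0.12, so receptor and capillary genes turned without rescaling. Capillary genes also turned after TPM was rescaled (-0.03) and with effective lengths as offset (-0.04). The first group encodes proteins of cell junctions and the endothelial surface. Of these 12, 8 were called higher in the model and 7 were called lower with TYA-018. Pecam1 (chromosome 11, 106654217 to 106750628) encodes CD31, an adhesion protein at contacts between endothelial cells that blood cells also carry. Pecam1 was at 173, 152, 153 and 143 CPM in the Control-Veh libraries, at 237, 213, 228 and 209 CPM in those of HFpEF-Veh and at 138, 130.1, 144 and 184 CPM in those of HFpEF-TYA-018. The HFpEF-Veh libraries lay above all 8 others, and T4 was the highest treated library. Pecam1 was 1.43-fold higher in HFpEF-Veh (log2 change 0.52 with SE 0.10, edgeR adjusted p = 0.00498) and fell with TYA-018 (log2 change -0.58 with SE 0.10, edgeR adjusted p = 0.00377). Both calls were lost on every TPM scale and with effective lengths as offset. Cdh5 (chromosome 8, 104101625 to 104144511) encodes VE-cadherin, the adherens junction protein that defines the cell type. Cdh5 was at 245, 217, 214 and 198 CPM in the Control-Veh libraries, at 307, 292, 295 and 291 CPM in those of HFpEF-Veh and at 190.4, 191, 209.9 and 271 CPM in those of HFpEF-TYA-018. Again no HFpEF-Veh library overlapped with the others, with T4 the nearest. Cdh5 was 1.36-fold higher in the model (log2 change 0.44 with SE 0.11, edgeR adjusted p = 0.0137) and lower with TYA-018 (log2 change -0.46 with SE 0.11, edgeR adjusted p = 0.0128). On every TPM scale both calls were lost, and the second was also lost with effective lengths as offset and without V1 and T1. Esam (chromosome 9, 37528078 to 37538319), an immunoglobulin-type adhesion molecule of tight junctions, followed the same order at smaller size. Esam was at 101, 110.2, 93.2 and 92.3 CPM in the Control-Veh libraries, at 123, 139, 118 and 117 CPM in those of HFpEF-Veh and at 108, 101, 97.8 and 114 CPM in those of HFpEF-TYA-018. HFpEF-Veh did not overlap with either group, and T4 came nearest to V4. Esam rose in HFpEF-Veh (log2 change 0.33 with SE 0.079, edgeR adjusted p = 0.0138), and its fall with TYA-018 (log2 change -0.25 with SE 0.079, edgeR adjusted p = 0.0487) was lost in 7 of 8 fits that left out 1 library. Both calls of Esam were lost on every TPM scale and with effective lengths as offset.

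Cd93, Clec14a and Mmrn2 belong together, since Cd93 and Clec14a encode related C-type lectin receptors and Mmrn2 encodes multimerin 2, a matrix protein that binds both. Cd93 was at 74.6, 70.9, 76.2 and 64.7 CPM in the Control-Veh libraries, at 105, 89.3, 94.2 and 82.3 CPM in those of HFpEF-Veh and at 69.1, 76.2, 73.7 and 75.9 CPM in those of HFpEF-TYA-018. All 4 HFpEF-Veh values of Cd93 (chromosome 2, 148436640 to 148443563) exceeded the other 8. Cd93 rose in the model (log2 change 0.37 with SE 0.078, edgeR adjusted p = 0.00679) and fell with TYA-018 (log2 change -0.33 with SE 0.078, edgeR adjusted p = 0.0136). Neither call of Cd93 was kept on any TPM scale or with effective lengths as offset, and the second was also lost without V1 and T1. Clec14a was at 14.97, 14.4, 16.1 and 13.003 CPM in the Control-Veh libraries, at 21.7, 20.6, 20.9 and 21.6 CPM in those of HFpEF-Veh and at 15.4, 16.5, 15.2 and 21.1 CPM in those of HFpEF-TYA-018. The HFpEF-Veh libraries of Clec14a (chromosome 12, 58264720 to 58269290) were close to each other and above Control-Veh, while T4 reached their range. Clec14a was 1.45-fold higher in HFpEF-Veh (log2 change 0.54 with SE 0.10, edgeR adjusted p = 0.00403), and its lower level with TYA-018 (log2 change -0.31 with SE 0.10, edgeR adjusted p = 0.0469) passed in 1 of the 8 fits that left out a library. Mmrn2 ranged over 37.9 to 46.2 CPM in the Control-Veh libraries, 48.2 to 54.3 CPM in those of HFpEF-Veh and 41.8 to 50.4 CPM in those of HFpEF-TYA-018. It was called higher in the model (log2 change 0.24 with SE 0.078, edgeR adjusted p = 0.0442) and was not called with TYA-018 (log2 change -0.16 with SE 0.078, edgeR adjusted p = 0.185). Of 8 fits that left out 1 library, only that without C1 kept the call in the model, and it was also lost with no filter and with only the 2 groups compared.

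Rasip1 (chromosome 7, 45627488 to 45639093) encodes a Ras-interacting protein needed to open the lumen of vessels. Rasip1 was at 55.3, 61.4, 60.4 and 59.9 CPM in the Control-Veh libraries, at 74.6, 75.5, 68.0 and 63.1 CPM in those of HFpEF-Veh and at 58.8, 61.3, 58.3 and 61.2 CPM in those of HFpEF-TYA-018. The HFpEF-Veh values were the highest 4 of the 12, with V4 just above C2. Rasip1 rose by a small amount (log2 change 0.25 with SE 0.063, edgeR adjusted p = 0.0172) and fell with TYA-018 (log2 change -0.23 with SE 0.063, edgeR adjusted p = 0.0253), a call that 5 of 8 fits without 1 library lost. Both calls of Rasip1 were lost on every TPM scale, with effective lengths as offset and without V1 and T1. Robo4 (chromosome 9, 37401897 to 37415115) encodes a roundabout receptor that steadies the vessel wall. Robo4 was at 62.8, 64.9, 62.3 and 64.3 CPM in the Control-Veh libraries, at 63.2, 63.7, 62.7 and 65.7 CPM in those of HFpEF-Veh and at 50.8, 55.6, 48.9 and 53.6 CPM in those of HFpEF-TYA-018. Both vehicle groups shared 1 range and all 4 treated libraries lay below it. Robo4 did not differ detectably between the vehicle groups (log2 change 0.01 with SE 0.050, edgeR adjusted p = 0.956), fell with TYA-018 against HFpEF-Veh (log2 change -0.29 with SE 0.050, edgeR adjusted p = 0.00334) and was lower than in Control-Veh (log2 change -0.28 with SE 0.050, edgeR adjusted p = 0.00932). Each of the last 2 calls held in every fit that left out 1 library. Both were lost on every TPM scale, and the call against Control-Veh was also lost with effective lengths as offset.

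The remaining 4 members of this role were called at most once. Icam2, an adhesion molecule for leukocytes, ranged over 15.2 to 19.95 CPM in the Control-Veh libraries, 19.4 to 22.4 CPM in those of HFpEF-Veh and 19.5 to 21.1 CPM in those of HFpEF-TYA-018, and was called higher in the model (log2 change 0.29 with SE 0.080, edgeR adjusted p = 0.0226) although C2 lay among the HFpEF-Veh values. This call was lost when C3, C4, V2 or V3 was left out, and without C2 Icam2 was also called in treated against control mice. Cldn5, the claudin of endothelial tight junctions, spanned 14.04 to 22.8 CPM in the Control-Veh libraries, 18.4 to 28.6 CPM in those of HFpEF-Veh and 25.1 to 38.3 CPM in those of HFpEF-TYA-018, and it was not called in the model (log2 change 0.32 with SE 0.18, edgeR adjusted p = 0.234) or with TYA-018 (log2 change 0.26 with SE 0.18, edgeR adjusted p = 0.341). Against Control-Veh all 4 treated libraries of Cldn5 were higher (log2 change 0.58 with SE 0.18, edgeR adjusted p = 0.0839), and C1 was low within its own group. The sialomucin gene Emcn lay at 32.5 to 43.7 CPM in the Control-Veh libraries, 30.2 to 42.6 CPM in those of HFpEF-Veh and 29.4 to 33.9 CPM in those of HFpEF-TYA-018 and the chemotaxis regulator Ecscr at 12.4 to 17.9 CPM in the Control-Veh libraries, 12.9 to 18.3 CPM in those of HFpEF-Veh and 12.4 to 16.03 CPM in those of HFpEF-TYA-018. Neither was called by edgeR in any comparison. Ecscr was called in the model and with TYA-018 by limma on TPM rescaled without mitochondrial and non-coding genes.

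The second group of 13 members encodes growth factor and lipid mediator receptors, their ligands and kinases. Among them 4 were called higher in HFpEF-Veh (Eng, S1pr1, Tie1 and Aplnr) and 6 were called lower with TYA-018 (Eng, S1pr1, Tie1, Ptprb, Flt4 and Flt1). Eng (chromosome 2, 32646595 to 32682669) encodes endoglin, a co-receptor for BMP and TGF-beta ligands. Eng was at 183, 216, 221 and 201 CPM in the Control-Veh libraries, at 316, 273, 306 and 295 CPM in those of HFpEF-Veh and at 206, 197, 206 and 253 CPM in those of HFpEF-TYA-018. All 4 HFpEF-Veh libraries stood above the rest, and T4 came closest. Eng was 1.45-fold higher in the model (log2 change 0.53 with SE 0.090, edgeR adjusted p = 0.002197) and fell with TYA-018 (log2 change -0.46 with SE 0.090, edgeR adjusted p = 0.00569). Both calls of Eng were lost on TPM without rescaling, and the second also without V1 and T1. S1pr1 (chromosome 3, 115710433 to 115715072) encodes the receptor for the blood lipid sphingosine-1-phosphate, which tightens junctions. S1pr1 was at 151, 153, 139 and 125 CPM in the Control-Veh libraries, at 198, 195, 169 and 179 CPM in those of HFpEF-Veh and at 117, 115, 112 and 147 CPM in those of HFpEF-TYA-018. HFpEF-Veh again did not overlap with either group, and T4 lay apart from the other 3 treated libraries. S1pr1 rose in the model (log2 change 0.38 with SE 0.10, edgeR adjusted p = 0.0162), a call lost without C4, and fell with TYA-018 (log2 change -0.60 with SE 0.10, edgeR adjusted p = 0.00269). Neither call of S1pr1 was kept on any TPM scale or with effective lengths as offset.

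Flt4 (chromosome 11, 49609263 to 49652739) encodes the VEGF-C receptor, found on lymphatic and on angiogenic blood endothelium. Flt4 was at 28.6, 31.5, 30.1 and 29.9 CPM in the Control-Veh libraries, at 35.1, 30.3, 31.3 and 31.9 CPM in those of HFpEF-Veh and at 21.5, 24.2, 24.5 and 23.6 CPM in those of HFpEF-TYA-018. The treated libraries lay below all 8 vehicle libraries, whose groups overlapped. Flt4 was not called in the model (log2 change 0.10 with SE 0.061, edgeR adjusted p = 0.267), fell with TYA-018 (log2 change -0.46 with SE 0.061, edgeR adjusted p = 0.00122) and was also lower than in Control-Veh (log2 change -0.36 with SE 0.061, edgeR adjusted p = 0.00869). The 2 calls of Flt4 were lost on every TPM scale and with effective lengths as offset. Kdr and Flt1 encode the VEGF receptors of blood vessel endothelium. Kdr ranged over 93.9 to 136 CPM in the Control-Veh libraries, 94.8 to 189 CPM in those of HFpEF-Veh and 93.0 to 112 CPM in those of HFpEF-TYA-018, with V1 far above V2 to V4, and was not called in the model (log2 change 0.22 with SE 0.19, edgeR adjusted p = 0.444) or with TYA-018 (log2 change -0.30 with SE 0.19, edgeR adjusted p = 0.295). Flt1 ranged over 160.3 to 229 CPM in the Control-Veh libraries, 191 to 238 CPM in those of HFpEF-Veh and 145 to 188 CPM in those of HFpEF-TYA-018, with C1 as high as the HFpEF-Veh libraries. It was not called in the model (log2 change 0.31 with SE 0.13, edgeR adjusted p = 0.0962) and was lower with TYA-018, where the groups did not overlap (log2 change -0.48 with SE 0.13, edgeR adjusted p = 0.0219). Flt1 was called in the model when C1 was left out and by DESeq2, and its call with TYA-018 was lost in 5 of 8 fits without 1 library.

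Tek and Tie1 encode the angiopoietin receptor and its partner, and Ptprb (chromosome 10, 116275523 to 116389535) encodes VE-PTP, a phosphatase that acts on the Tek protein and on VE-cadherin. Ptprb was at 170.0, 138, 139 and 124 CPM in the Control-Veh libraries, at 195, 191, 159.6 and 189 CPM in those of HFpEF-Veh and at 103, 125, 144 and 143 CPM in those of HFpEF-TYA-018. V3 fell below C1, so the vehicle groups overlapped, while every treated library lay below every HFpEF-Veh library. Ptprb missed the threshold in the model (log2 change 0.36 with SE 0.12, edgeR adjusted p = 0.0508) and fell with TYA-018 (log2 change -0.51 with SE 0.12, edgeR adjusted p = 0.0136). The difference in the model was called when C1 or V3 was left out, with DESeq2 or its size factors, and with only the 2 groups compared. The call of Ptprb with TYA-018 was lost on every TPM scale, with effective lengths as offset and without V1 and T1. Tie1 spanned 103 to 122 CPM in the Control-Veh libraries, 121 to 145 CPM in those of HFpEF-Veh and 101 to 114 CPM in those of HFpEF-TYA-018, was called higher in the model (log2 change 0.23 with SE 0.076, edgeR adjusted p = 0.0453) and lower with TYA-018 (log2 change -0.28 with SE 0.076, edgeR adjusted p = 0.0258). Each of these calls was lost in 5 of 8 fits without 1 library, the first without C3, C4, V1, V2 or V3 and the second without V1, V2, T1, T2 or T3. Tek spanned 38.5 to 52.3 CPM in the Control-Veh libraries, 47.1 to 60.1 CPM in those of HFpEF-Veh and 38.6 to 59.8 CPM in those of HFpEF-TYA-018 and was not called in either (0.21 and -0.18 on the log2 scale, edgeR adjusted p = 0.297 and 0.381).

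Egfl7 (chromosome 2, 26580014 to 26593120), a secreted factor of the vessel wall, was among the most abundant members. Egfl7 was at 94.2, 123, 124 and 135 CPM in the Control-Veh libraries, at 112, 120.5, 109.6 and 107 CPM in those of HFpEF-Veh and at 118, 143, 123 and 114 CPM in those of HFpEF-TYA-018. The 3 groups overlapped throughout, and no comparison was called (-0.09 in the model and 0.15 with TYA-018 on the log2 scale, edgeR adjusted p = 0.599 and 0.353). Dll4, the Notch ligand of arterial and tip cells, stayed within 26.8 to 31.3 CPM in the Control-Veh libraries, 25.8 to 32.01 CPM in those of HFpEF-Veh and 29.7 to 34.9 CPM in those of HFpEF-TYA-018 without a call (-0.03 and 0.16, edgeR adjusted p = 0.831 and 0.175). Aplnr, the receptor for apelin, lay at 9.98 to 11.1 CPM in the Control-Veh libraries, 11.4 to 15.97 CPM in those of HFpEF-Veh and 10.98 to 15.4 CPM in those of HFpEF-TYA-018, and it was called higher in the model (log2 change 0.38 with SE 0.12, edgeR adjusted p = 0.0484) and not called with TYA-018 (log2 change -0.08 with SE 0.12, edgeR adjusted p = 0.691). The call held in 2 of 8 fits without 1 library (those without V2 or V4) and was lost with no filter and with only the 2 groups compared. Its ligand gene Apln (3.67 to 6.55 CPM in the Control-Veh libraries, 4.57 to 9.54 CPM in those of HFpEF-Veh and 4.302 to 6.81 CPM in those of HFpEF-TYA-018) and the arterial kinase gene Bmx (1.59 to 2.63 CPM in the Control-Veh libraries, 1.15 to 2.26 CPM in those of HFpEF-Veh and 1.31 to 2.05 CPM in those of HFpEF-TYA-018) were low and were not called in any comparison.

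**Figure D3:**
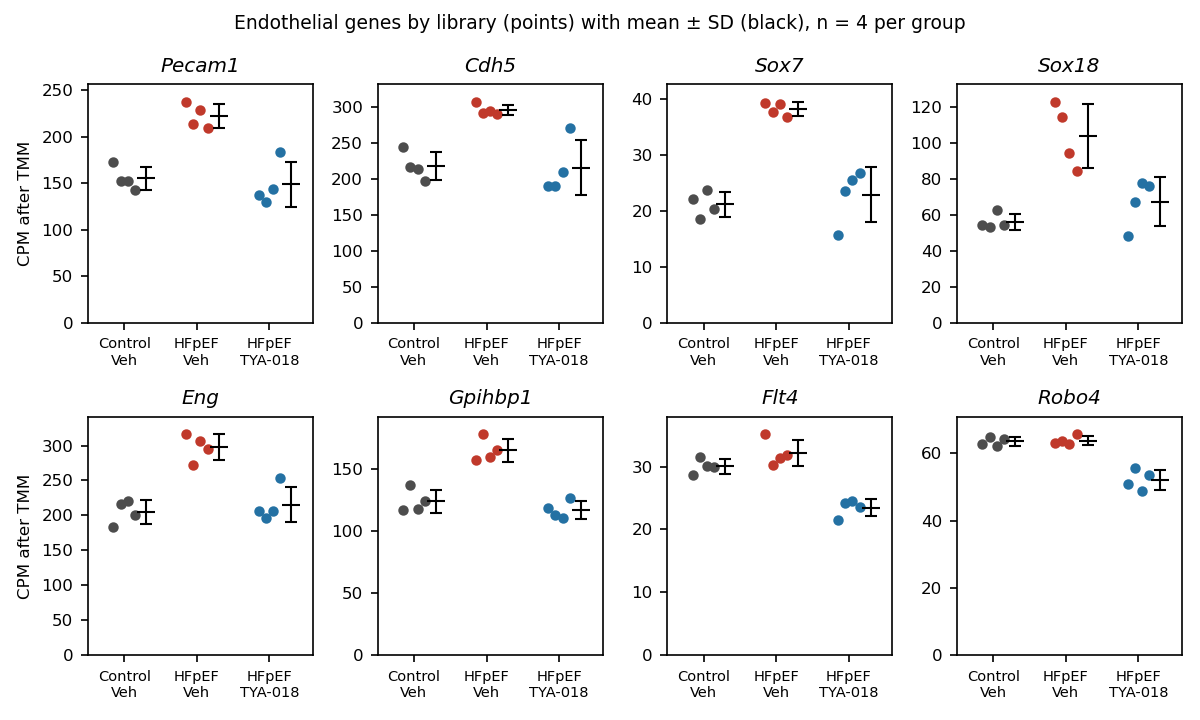
CPM after TMM in each library (points) with the group mean and SD (black, n = 4) for 8 genes, each on a linear axis from 0. Pecam1, Cdh5, Sox7, Sox18, Eng and Gpihbp1 have their 4 HFpEF-Veh points above all 8 others, while Flt4 and Robo4 have their 4 HFpEF-TYA-018 points below all 8 others.

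Transcription factors are encoded by 6 members, of which 4 were called higher in HFpEF-Veh and 4 lower with TYA-018. The SOXF factors, encoded by Sox7, Sox17 and Sox18, act together in vessel growth and arterial fate. Sox7 was at 22.1, 18.6, 23.8 and 20.3 CPM in the Control-Veh libraries, at 39.4, 37.6, 39.2 and 36.7 CPM in those of HFpEF-Veh and at 15.7, 23.6, 25.6 and 26.8 CPM in those of HFpEF-TYA-018. For Sox7 (chromosome 14, 63943673 to 63950732) the 4 HFpEF-Veh libraries were close to each other and above all others, and T1 was the lowest of all 12. Sox7 was 1.803-fold higher in the model (log2 change 0.85 with SE 0.14, edgeR adjusted p = 0.00186) and fell with TYA-018 (log2 change -0.74 with SE 0.14, edgeR adjusted p = 0.00457). Sox18 was at 54.4, 53.2, 62.7 and 54.3 CPM in the Control-Veh libraries, at 123, 115, 94.6 and 84.2 CPM in those of HFpEF-Veh and at 48.1, 67.0, 77.7 and 76.1 CPM in those of HFpEF-TYA-018. The lowest HFpEF-Veh value of Sox18 (chromosome 2, 181669836 to 181671640) exceeded the highest value elsewhere, and HFpEF-Veh was also the most spread group. Sox18 showed the largest rise of the 37 genes, 1.85-fold (log2 change 0.89 with SE 0.15, edgeR adjusted p = 0.00229), and fell with TYA-018 (log2 change -0.63 with SE 0.15, edgeR adjusted p = 0.01405). Sox17 was at 35.6, 35.3, 31.02 and 27.3 CPM in the Control-Veh libraries, at 40.8, 47.8, 36.6 and 38.5 CPM in those of HFpEF-Veh and at 30.7, 29.4, 27.5 and 30.8 CPM in those of HFpEF-TYA-018. Sox17 (chromosome 1, 4490931 to 4497354) had no overlap of HFpEF-Veh with either group, although V3 lay just above C1. It rose by less than its relatives (log2 change 0.34 with SE 0.10, edgeR adjusted p = 0.0268), a call lost in 4 of 8 fits without 1 library, and fell with TYA-018 (log2 change -0.47 with SE 0.10, edgeR adjusted p = 0.00754). Sox18 and Sox7 were also called in both comparisons when TPM was rescaled and when effective lengths entered as an offset. Without V1 and T1 the call of Sox18 with TYA-018 was lost.

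Tal1, which encodes a basic helix-loop-helix factor of blood and endothelium, ranged over 5.54 to 5.82 CPM in the Control-Veh libraries, 6.69 to 7.57 CPM in those of HFpEF-Veh and 5.19 to 6.42 CPM in those of HFpEF-TYA-018. It was called higher in the model (log2 change 0.30 with SE 0.082, edgeR adjusted p = 0.0227) and lower with TYA-018 (log2 change -0.26 with SE 0.082, edgeR adjusted p = 0.04099), both without overlap in CPM. The first call was lost without C3 or V3, and the second held in 1 of 8 fits without 1 library (that without T2). Both changes of Tal1 turned sign on every TPM scale and with effective lengths as offset. The ETS factor genes Erg and Fli1 were not called by the edgeR fit to 12 libraries in any comparison. Erg was called in the model without C1, and with TYA-018 when only the 2 groups compared were fitted. Erg counts were fractional in all 12 libraries and spread widely, at 2.16 to 11.99 CPM in the Control-Veh libraries, 7.59 to 10.6 CPM in those of HFpEF-Veh and 3.94 to 7.22 CPM in those of HFpEF-TYA-018. Fli1 lay at 16.5 to 22.9 CPM in the Control-Veh libraries, 17.97 to 22.1 CPM in those of HFpEF-Veh and 14.5 to 21.4 CPM in those of HFpEF-TYA-018.

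The last 6 members serve capillary transport, fenestrae and secretion. Of the 6, 2 were called higher and 1 lower in HFpEF-Veh, and 3 were called lower with TYA-018. Gpihbp1 (chromosome 15, 75596628 to 75599481) anchors lipoprotein lipase on the inner face of capillaries, where the enzyme frees fatty acids. Gpihbp1 was at 117, 137, 118 and 124 CPM in the Control-Veh libraries, at 157, 178, 159.7 and 165 CPM in those of HFpEF-Veh and at 119, 113, 111 and 126 CPM in those of HFpEF-TYA-018. No HFpEF-Veh library overlapped with another group. Gpihbp1 was 1.33-fold higher in the model (log2 change 0.41 with SE 0.070, edgeR adjusted p = 0.00218) and fell with TYA-018 (log2 change -0.49 with SE 0.070, edgeR adjusted p = 0.001405), and both calls held in every fit without 1 library. Cd300lg (chromosome 11, 102041509 to 102055620) encodes a capillary surface glycoprotein that takes part in lymphocyte binding. Cd300lg was at 148, 172, 151 and 146 CPM in the Control-Veh libraries, at 229, 211, 183 and 176 CPM in those of HFpEF-Veh and at 134, 129, 144 and 163 CPM in those of HFpEF-TYA-018. V3 and V4 lay only just above C2, and the treated libraries were below all of HFpEF-Veh. Cd300lg rose in the model (log2 change 0.37 with SE 0.10, edgeR adjusted p = 0.0209), a call that 4 of 8 fits without 1 library lost, and fell with TYA-018 (log2 change -0.49 with SE 0.10, edgeR adjusted p = 0.00707). Both calls of Cd300lg were lost on every TPM scale, with effective lengths as offset and without V1 and T1.

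Fabp4 (chromosome 3, 10204088 to 10208576), the member with the highest level, encodes a fatty acid-binding protein shared by capillary endothelium and fat cells. Fabp4 was at 726, 848, 669 and 736 CPM in the Control-Veh libraries, at 889.6, 869, 864 and 744 CPM in those of HFpEF-Veh and at 670.0, 644, 599 and 747 CPM in those of HFpEF-TYA-018. C2 lay within the HFpEF-Veh range and T4 just above V4, so the groups overlapped in both comparisons. Fabp4 was not called in the model (log2 change 0.18 with SE 0.092, edgeR adjusted p = 0.1902) and was lower with TYA-018 (log2 change -0.34 with SE 0.092, edgeR adjusted p = 0.0241), a call lost in 6 of 8 fits without 1 library. Plvap, which forms the diaphragms of fenestrae and caveolae, was the only member called lower in the model (log2 change -0.47 with SE 0.14, edgeR adjusted p = 0.0385). It ranged over 10.3 to 13.7 CPM in the Control-Veh libraries, 7.17 to 9.62 CPM in those of HFpEF-Veh and 7.66 to 11.9 CPM in those of HFpEF-TYA-018, without overlap of the vehicle groups, and was not called with TYA-018 (log2 change 0.14 with SE 0.14, edgeR adjusted p = 0.534). Its call held in 2 of 8 fits without 1 library (those without C2 or V2). Aqp1, a water channel that red cells also carry, spanned 523 to 680.0 CPM in the Control-Veh libraries, 373 to 590.2 CPM in those of HFpEF-Veh and 377 to 515 CPM in those of HFpEF-TYA-018 and was not called, although its treated libraries lay below those of Control-Veh (log2 change -0.50 with SE 0.16, edgeR adjusted p = 0.0855). Vwf, the clotting factor stored in endothelial granules, lay at 36.98 to 71.5 CPM in the Control-Veh libraries, 44.9 to 54.3 CPM in those of HFpEF-Veh and 34.97 to 46.996 CPM in those of HFpEF-TYA-018, with C1 far above the other Control-Veh libraries, and was not called in the fit to 12 libraries. It was called in the model without C1, and with TYA-018 when only the 2 groups compared were fitted.

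Some members are also known from blood, fat or immune cells. Of 10 such genes (Aqp1, Tal1, Fabp4, Fli1, Icam2, Vwf, Pecam1, Erg, Cd93 and Tek), 4 were called higher in HFpEF-Veh and 4 lower with TYA-018. The other 27 gave 14 called higher and 1 lower in the model, and 16 called lower with TYA-018, at medians of 0.31 and -0.29 on the log2 scale. On log2(TPM + 1) without rescaling the medians of these 27 were 0.06 and 0.08, where those of all genes were -0.07 and 0.17. After TPM was rescaled the medians of the 27 were 0.33 and -0.28.

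Promoter sequence from RefSeq (250 bases before to 50 after the start, GRCm38.p6) was matched to 18 of the 37 members, in 23 entries. Short motifs were counted on both strands, and none of them contains another. The ETS letters ACAGGAA (or TTCCTGT) were in 6 of 23 entries (26.1%) and in 8.67% of all 32851 promoters, and the other ETS letters CCGGAAG were in 0 of 23 against 8.86%. Those 6 entries belonged to Bmx, Egfl7, Emcn, Rasip1 and Tie1, so entries are not separate genes. With either ETS form the shares were 26.1% and 16.8%. The SOX letters ACAATG were in 4.35% against 12.6%, and the GATA letters AGATAA in 13.04% against 11.2%. These shares describe letters in a short window, and a match is not a site of binding. The 250 bases before the RefSeq start of 3 called members that hold a motif are printed because these genes were called higher in the model and lower with TYA-018 by edgeR. For Rasip1 and Tie1 this start lies inside the gene as GENCODE M21 places it. Rasip1 begins there at 45627488 and Tie1 at 118490061. Part of the Rasip1 stretch and most of the Tie1 stretch, with its motif, thus lie within the gene. Capitals mark the motif, TTCCTGT in Rasip1 (chr7:45627287-45627536, plus strand) and Tie1 (chr4:118489850-118490099, minus strand) and TTATCT in Tal1 (chr4:115056176-115056425, plus strand), each read 5′ to 3′ on the gene's strand.
Rasip1: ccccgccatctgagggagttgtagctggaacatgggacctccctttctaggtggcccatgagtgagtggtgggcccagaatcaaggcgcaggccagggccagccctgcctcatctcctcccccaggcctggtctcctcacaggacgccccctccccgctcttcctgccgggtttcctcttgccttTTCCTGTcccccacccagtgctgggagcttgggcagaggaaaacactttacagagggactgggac
Tie1: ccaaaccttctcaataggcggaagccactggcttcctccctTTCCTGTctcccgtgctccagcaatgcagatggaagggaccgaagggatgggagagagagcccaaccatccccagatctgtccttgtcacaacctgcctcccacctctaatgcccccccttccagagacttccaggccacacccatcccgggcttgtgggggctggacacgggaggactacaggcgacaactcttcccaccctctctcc
Tal1: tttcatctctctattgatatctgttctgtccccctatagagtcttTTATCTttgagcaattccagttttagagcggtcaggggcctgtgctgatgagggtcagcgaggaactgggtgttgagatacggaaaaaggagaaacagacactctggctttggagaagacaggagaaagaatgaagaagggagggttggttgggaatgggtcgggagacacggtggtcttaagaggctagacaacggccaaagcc

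The members sit within wider endothelial pathways, so 86 further genes of those pathways were counted, of which 85 were tested. In the model 26 were called higher and 5 lower with a median log2 fold change of 0.18, and with TYA-018 3 were called higher and 26 lower with a median of -0.24. These counts and those of each list below stand against the shares over all genes tested. In the model 10.9% were called higher and 10.3% lower, and with TYA-018 8.93% were called higher and 10.4% lower. On log2(TPM + 1) without rescaling the medians were 0.02 and 0.11, so the second direction turned there. The medians of all genes on that scale were -0.07 and 0.17. After TPM was rescaled the pathway medians were 0.25 and -0.20, and with effective lengths as offset 0.25 and -0.23. At most 3 called genes of each list are named, those with the smallest p.

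In the Notch and arterial list 6 of 12 were called higher in the model and 3 lower with TYA-018. The 3 called with TYA-018 lie near the share of 19.3% over all genes. Notch4, the endothelial Notch receptor, went from 72.8 ± 5.45 CPM in Control-Veh to 94.5 ± 2.75 in HFpEF-Veh (SD, n = 4; log2 change 0.38 with SE 0.062, edgeR adjusted p = 0.00206) and 69.4 ± 3.68 in HFpEF-TYA-018 (log2 change -0.45 with SE 0.062, edgeR adjusted p = 0.001404). The ligand gene Jag1 went from 14.7 ± 0.859 to 18.1 ± 1.52 (log2 change 0.30 with SE 0.081, edgeR adjusted p = 0.02095) and 12.6 ± 1.03 CPM (log2 change -0.52 with SE 0.081, edgeR adjusted p = 0.00207). Sema3g, a semaphorin of arterial endothelium, rose from 33.6 ± 4.58 to 49.8 ± 2.602 CPM (log2 change 0.57 with SE 0.10, edgeR adjusted p = 0.00304) and was not called with TYA-018 (log2 change -0.17 with SE 0.10, edgeR adjusted p = 0.253).

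Of 14 genes of flow response, coagulation and activation, 7 were called higher and 1 lower in the model, and 7 were called lower with TYA-018. Cd34, a surface sialomucin, rose from 81.9 ± 8.72 to 135 ± 9.79 CPM (log2 change 0.72 with SE 0.077, edgeR adjusted p = 0.000412) and fell to 98.9 ± 2.87 (log2 change -0.45 with SE 0.077, edgeR adjusted p = 0.00309). Mcam, the adhesion molecule CD146, rose from 37.9 ± 0.983 to 54.3 ± 5.66 CPM (log2 change 0.52 with SE 0.069, edgeR adjusted p = 0.000784) and fell to 46.1 ± 1.55 (log2 change -0.24 with SE 0.069, edgeR adjusted p = 0.0324). Tfpi, the inhibitor of the tissue factor pathway, went the other way in the model, from 35.7 ± 2.85 to 23.3 ± 1.52 CPM (log2 change -0.62 with SE 0.087, edgeR adjusted p = 0.00103), and stood at 22.1 ± 2.56 CPM with TYA-018 (log2 change -0.08 with SE 0.087, edgeR adjusted p = 0.582). Nos3, the endothelial nitric oxide synthase that L-NAME inhibits, was singled out after its values were seen, and went from 49.8 ± 2.27 to 55.8 ± 0.915 (log2 change 0.17 with SE 0.046, edgeR adjusted p = 0.0246) and 48.8 ± 1.07 CPM (log2 change -0.19 with SE 0.046, edgeR adjusted p = 0.0141).

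Among 12 genes of cardiac capillaries and lipid delivery, 2 were called higher and 1 lower in the model, and 1 higher and 6 lower with TYA-018. The 3 called in the model lie near the share of 21.2% over all genes. Rbp7, a retinoid-binding protein of capillary endothelium, rose from 19.8 ± 1.76 to 38.5 ± 5.86 CPM (log2 change 0.96 with SE 0.12, edgeR adjusted p = 0.000541) and fell to 23.8 ± 2.65 (log2 change -0.69 with SE 0.12, edgeR adjusted p = 0.00286). Rgcc, a cell cycle regulator, rose from 80.6 ± 13.9 to 107 ± 14.6 CPM (log2 change 0.41 with SE 0.12, edgeR adjusted p = 0.0316) and fell to 72.3 ± 5.48 (log2 change -0.57 with SE 0.12, edgeR adjusted p = 0.00862). Car4, a carbonic anhydrase on capillaries, was not called in the model (log2 change 0.48 with SE 0.16, edgeR adjusted p = 0.0531) and fell with TYA-018 from 57.4 ± 5.605 to 36.02 ± 9.82 CPM (log2 change -0.67 with SE 0.16, edgeR adjusted p = 0.0144). Lpl, the lipase that the Gpihbp1 protein carries, was named after its values were seen, and it fell from 4164 ± 308 to 3243 ± 213 CPM in the model (log2 change -0.36 with SE 0.089, edgeR adjusted p = 0.0146), where Gpihbp1 rose, and stood at 3255 ± 368 CPM with TYA-018 (log2 change 0.01 with SE 0.089, edgeR adjusted p = 0.972). Which cells of the ventricle gave the Lpl RNA was not tested, so its fall is not shown to be endothelial.

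Venous, endocardial and lymphatic genes were mixed, with 2 of 13 called higher and 2 lower in the model, and 1 higher and 2 lower with TYA-018. The 3 called with TYA-018 lie near the share of 19.3% over all genes. Ephb4, a venous ephrin receptor, rose from 46.8 ± 3.48 to 76.8 ± 5.45 CPM (log2 change 0.71 with SE 0.10, edgeR adjusted p = 0.00107) and fell to 47.8 ± 7.697 (log2 change -0.68 with SE 0.10, edgeR adjusted p = 0.00176). Lyve1, a hyaluronan receptor of lymphatic vessels and of some macrophages, rose from 14.3 ± 2.65 to 21.5 ± 2.901 CPM (log2 change 0.59 with SE 0.15, edgeR adjusted p = 0.0183) and fell to 9.91 ± 1.89 (log2 change -1.12 with SE 0.15, edgeR adjusted p = 0.00137). Prox1, the lymphatic master regulator that heart muscle also expresses, fell from 18.8 ± 1.71 to 14.5 ± 1.53 CPM (log2 change -0.37 with SE 0.10, edgeR adjusted p = 0.0177) and rose to 18.9 ± 1.93 (log2 change 0.38 with SE 0.10, edgeR adjusted p = 0.0176). Lyve1 and Prox1 therefore did not share a direction. Since both are also found outside lymphatic vessels, their values do not give a direction for lymphatic genes.

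For ligands and co-receptors the counts were 2 of 15 higher and 1 lower in the model, and 5 lower with TYA-018. Without regard to calls, 6 were positive and 9 negative in the model, with a median log2 fold change of -0.08. With TYA-018 8 were positive and 7 negative, with a median of 0.07, so the list as a whole did not rise and then fall. The 3 called in the model lie near the share of 21.2% over all genes. Acvrl1, the receptor that works with endoglin, rose from 40.4 ± 4.13 to 49.7 ± 2.84 CPM (log2 change 0.30 with SE 0.073, edgeR adjusted p = 0.01398) and fell to 39.5 ± 1.59 (log2 change -0.33 with SE 0.073, edgeR adjusted p = 0.00978). Spns2, which exports the ligand of S1pr1 from endothelial cells, rose from 15.6 ± 1.09 to 21.4 ± 1.45 CPM (log2 change 0.45 with SE 0.089, edgeR adjusted p = 0.00464) and fell to 17.2 ± 2.01 (log2 change -0.32 with SE 0.088, edgeR adjusted p = 0.0279). Bmp4 was not called in the model (log2 change -0.06 with SE 0.088, edgeR adjusted p = 0.644) and fell with TYA-018 from 10.9 ± 0.248 to 8.12 ± 0.686 CPM (log2 change -0.43 with SE 0.088, edgeR adjusted p = 0.00721).

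Of 10 genes of angiogenic endothelium, 3 were called higher in the model and 2 lower with TYA-018. The 2 called with TYA-018 lie near the share of 19.3% over all genes. Col4a2, a collagen of vascular and muscle basement membranes, rose from 205 ± 13.8 to 386 ± 32.5 CPM (log2 change 0.91 with SE 0.076, edgeR adjusted p = 0.000108) and fell to 249.7 ± 14.8 (log2 change -0.63 with SE 0.076, edgeR adjusted p = 0.000725). Plaur, the urokinase receptor, rose from 2.05 ± 0.238 to 3.08 ± 0.315 CPM (log2 change 0.58 with SE 0.14, edgeR adjusted p = 0.01299), and Pgf, a ligand of the Flt1 receptor, fell with TYA-018 from 10.2 ± 0.226 to 7.65 ± 1.28 CPM (log2 change -0.41 with SE 0.11, edgeR adjusted p = 0.0228). Among 12 tested ETS, GATA and related factors, 4 were called higher in the model, and 2 lower and 1 higher with TYA-018. The 3 called with TYA-018 also lie near that share. Elk3 rose from 31.96 ± 0.585 to 41.8 ± 0.3803 CPM (log2 change 0.39 with SE 0.064, edgeR adjusted p = 0.00202) and fell to 30.9 ± 3.203 (log2 change -0.44 with SE 0.064, edgeR adjusted p = 0.00156). Gata2 rose from 27.98 ± 1.95 to 34.4 ± 4.17 CPM (log2 change 0.30 with SE 0.10, edgeR adjusted p = 0.0458) and fell to 23.1 ± 2.56 (log2 change -0.57 with SE 0.10, edgeR adjusted p = 0.003004). Foxo1 rose from 17.02 ± 1.29 to 22.4 ± 1.29 CPM (log2 change 0.39 with SE 0.087, edgeR adjusted p = 0.00894) and was not called with TYA-018 (log2 change -0.24 with SE 0.087, edgeR adjusted p = 0.0717).

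Markers of other cell types moved between the same groups, and their part in the endothelial values was not tested. Their calls stand against 21.2% of all genes called in the model and 19.3% with TYA-018. None of these markers was at 0 in all libraries. The 37 endothelial genes summed to 3542 to 3968 CPM in the Control-Veh libraries, 4220 to 4592 CPM in those of HFpEF-Veh and 3228 to 3920 CPM in those of HFpEF-TYA-018. The 10 cardiomyocyte genes summed to 31033 to 43745, 28732 to 30614 and 32882 to 36267 CPM in the same order, with 8 called lower and 1 higher in the model, and 4 called higher with TYA-018. Fibroblast genes summed to 739.7 to 1224, 1254 to 1798 and 854 to 1219 CPM, with 6 of 10 called higher and then 6 lower. Macrophage genes summed to 139.9 to 177, 220.3 to 290.1 and 160.0 to 194 CPM, with 8 of 10 called higher and then 6 lower.

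Red cell genes summed to 1557 to 2313 CPM in the Control-Veh libraries, 4800 to 14192 CPM in those of HFpEF-Veh, highest in V1, and 2302 to 3580 CPM in those of HFpEF-TYA-018, and all 8 tested were called higher and then lower. Of 10 genes of cycling cells, 9 were called higher and 1 lower in the model, and 6 lower with TYA-018. Smooth muscle and pericyte genes, which mark the cells around the endothelium, gave 1 of 10 called higher and then 1 lower, with sums of 882 to 999, 1010 to 1111 and 792 to 974 CPM. The sums do not give the direction of most of these genes. By gene, 4 were positive and 6 negative in the model (median log2 fold change -0.05). With TYA-018 6 were positive and 4 negative (median 0.07). Of 6 tested fat cell genes, 2 were called lower in the model, and 1 was called higher and 2 lower with TYA-018. One of the latter 2 is Fabp4, which is also a member here. Of 9 tested platelet and lymphocyte genes, 1 was called higher and 1 lower in the model and 0 with TYA-018. The calls in the model lie near the share of 21.2% over all genes. On log2(TPM + 1) without rescaling the median change with TYA-018 was 0.66 for cardiomyocyte, 0.20 for smooth muscle and pericyte, -0.03 for fibroblast, -0.11 for macrophage and -0.87 for red cell genes. The median of all genes was 0.17 on that scale.

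**Figure D4:**
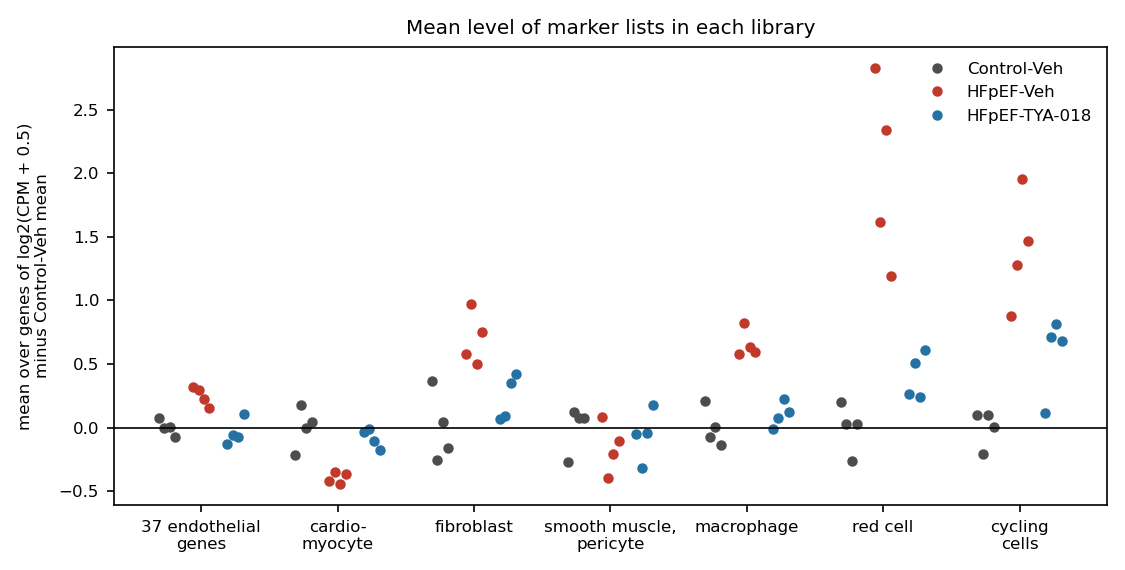
Mean over the genes of each list of log2(CPM + 0.5), relative to the Control-Veh mean, in each library (points, coloured by group). The 37 endothelial genes lie at 0.16 to 0.32 in HFpEF-Veh, above Control-Veh and HFpEF-TYA-018, and cardiomyocyte genes lie below in HFpEF-Veh. The red cell and cycling lists spread furthest.

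**Figure D5:**
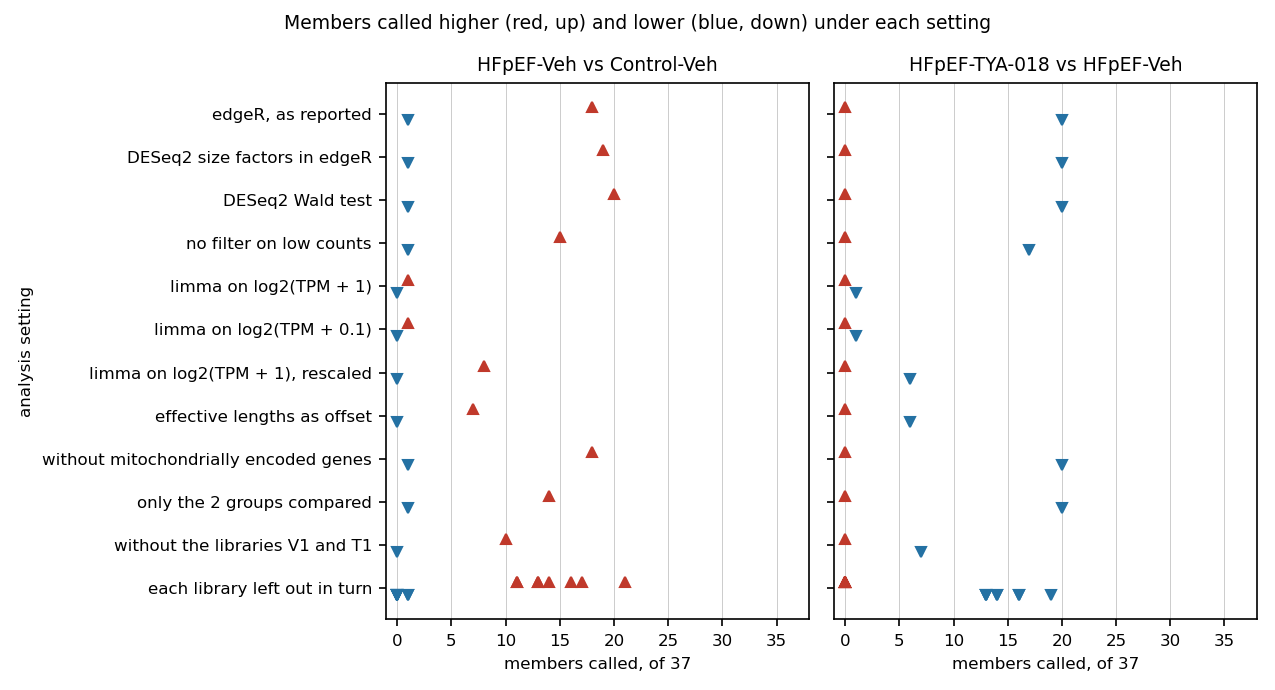
Number of the 37 genes called higher (red, pointing up) and lower (blue, pointing down) in 2 comparisons under each analysis setting, with 1 pair of symbols per left-out library in the last line. In the left panel red counts run from 1 to 21, and in the right panel blue counts run from 1 to 20 with red at 0 throughout. The lowest counts come from TPM without rescaling, where only Sox18 was called.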

How the data were processed

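Left ventricle RNA of 12 mice was sequenced as stranded poly(A) libraries, 4 per group, grouped by the labels. The authors trimmed reads with fastp, quantified them with salmon 1.6.0 against GENCODE M25 transcripts (GRCm38.p6) and summarised them per gene with tximport. The labels name a human build, which the mouse gene symbols contradict, and the labels and methods give different read layouts. The deposited tables hold 3 kinds of value per gene and library: the estimated count, TPM, and the effective gene length. Estimated counts need not be whole numbers, and they were fractional in some or all libraries of 11 members. All columns were used (0 left out).

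Counts were rounded and tested in edgeR 4.0.16 (R 4.3.3). The filter filterByExpr left 14333 genes holding 99.98% of counts. Scaling was by TMM, and 1 quasi-likelihood model was fitted to 12 libraries (9 residual degrees of freedom, two-sided tests, Benjamini-Hochberg adjustment over all genes tested). Mice are separate animals by label, and 4 against 4 libraries cannot give an exact permutation p below 0.0286. Values in 12 libraries are given for the 16 called members with the smallest p in the first 2 comparisons (of 24 called), the 3 with the highest TPM, Pecam1 and Cdh5. Of each pathway list at most 3 called genes were named. Alternatives were DESeq2 1.42.0 and its size factors, no filter, limma 3.58.1 on log2(TPM + 1) and log2(TPM + 0.1), TPM rescaled to coding genes without mitochondrial ones, effective lengths as offset, no mitochondrial genes, only the 2 groups compared, and each library left out. One was added after the data were seen, without V1 and T1. Coordinates come from the GENCODE M21 annotation of the same build. The scripts were tested on simulated data. The members and gene lists were chosen with earlier results of these data known.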

Additional observations from a re-analysis of the deposited data

Results flagged for a closer look

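Within each group of 4 libraries the highest and lowest value of every member was set against Dixon's 95% limit, in 111 tests, and 6 members had a library beyond it. Chance gives about 1 in 20. In Control-Veh, Flt1 was high in C1, at 229 CPM against 160.3 to 165 in the other 3 libraries, and Sox18 was high in C3, at 62.7 CPM against 53.2 to 54.4. Cldn5 was low in C1, at 14.0 CPM against 21.9 to 22.8. In HFpEF-Veh, Ptprb was low in V3, at 159.6 CPM against 189 to 195. In HFpEF-TYA-018, library T4 was high for Aqp1, at 515 CPM against 377 to 397, and for S1pr1, at 147 CPM against 112 to 117. Over all 37 genes the mean of log2(CPM + 0.5) relative to Control-Veh was 0.11 in T4 and -0.13 to -0.06 in T1 to T3.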

How the results depend on the processing

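No paired analysis was possible because the groups had no animal numbers in common. The numbers of members called (HFpEF-Veh against Control-Veh, then HFpEF-TYA-018 against HFpEF-Veh, then HFpEF-TYA-018 against Control-Veh) were 19, 20 and 2. They became 1, 1 and 0 on both log2(TPM + 1) and log2(TPM + 0.1), 8, 6 and 0 after TPM was rescaled without mitochondrial and non-coding genes, and 7, 6 and 0 with effective lengths as offset. Called in the model both after rescaling and with the offset were Tie1, Eng, Sox7, Sox18, Gpihbp1 and Clec14a. With TYA-018 these were Eng, Sox7, Sox17, Sox18 and Gpihbp1. In the third comparison the 2 edgeR calls stood beside 4 by DESeq2 (3 lower and 1 higher, adding Aqp1 and Cldn5). Without V1 and T1 the first 2 counts were 10 and 7. With each library left out in turn they ranged from 11 to 21, from 13 to 19 and from 2 to 3. Members called in every such fit numbered 10, 13 and 2. DESeq2 size factors, DESeq2, no filter, no mitochondrial genes and only the 2 groups compared gave 15 to 21 and 17 to 20 calls in the first 2 comparisons.

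On log2(TPM + 1) the median change of all genes in the first 2 comparisons was -0.07 and 0.17, and on log2(TPM + 0.1) it was -0.17 and 0.34. On each of these scales 26 of the 37 members changed sign with TYA-018, 13 of the 20 called lower among them, and in the model 8 members did, S1pr1 and Tal1 being the called ones. For the 10 of these 13 whose 12 values are given, the changes on log2(TPM + 1) and log2(TPM + 0.1) were 0.088 and 0.15 for Flt4, 0.13 and 0.14 for S1pr1, 0.14 and 0.17 for Robo4, 0.13 and 0.14 for Pecam1, 0.082 and 0.13 for Clec14a, 0.0042 and 0.0045 for Cd300lg, 0.20 and 0.27 for Cd93, 0.040 and 0.051 for Ptprb, 0.40 and 0.45 for Rasip1, and 0.23 and 0.23 for Fabp4, none called by limma. Flt1, Tie1 and Tal1 were the other 3. S1pr1 changed sign in the model (-0.060 and -0.065), Robo4 against Control-Veh on log2(TPM + 1) (0.00089), and Rasip1 with TYA-018 with the length offset (0.012). The cause was not tested. Bmx had the fewest counts of the 37, at 66 in its lowest library.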
